A study of Rattus norvegicus with 12 samples.

Results

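The 71 genes described here encode subunits of calcium, sodium, Hcn, cyclic nucleotide gated, Trp, acid-sensing and P2X channels, inositol trisphosphate (IP3) receptors and Clc chloride channels. They were chosen by name from the 8260 core probesets of an exon array, of which 7608 carried exactly 1 gene symbol. A probeset was taken when its only symbol began with Cacn, Scn, Trpa, Trpc, Trpm, Trpv, Hcn, Asic, Accn, P2rx, Clcn, Cng, Ryr or Itpr. Trpv1, Trpa1, Scn10a, Scn11a and P2rx2 and the Itprip genes were left out. The rule uses names only, but the set was drawn up with earlier results of these data known. The genes fell into 11 families, with 23 calcium channel genes, 9 sodium channel genes, 3 Hcn, 5 Cng, 5 Trpc, 4 Trpm, 3 Trpv, 5 Asic, 6 P2X receptor, 3 IP3 receptor and 5 Clc genes, and no probeset with a ryanodine receptor symbol met the rule. A further 4 probesets carried more than 1 symbol (Trpv4 with Trpv1, and Scn2a, Scn1a and Scn9a each with Scn3a). They could not be given to 1 gene and were not analysed.

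In the LID group (local inflammation of the dorsal root ganglion), 6 adult male Sprague Dawley rats received the immune stimulator zymosan, made from yeast cell walls, suspended in incomplete Freund's adjuvant (2 mg/ml), of which 10 µl was placed on 1 L5 ganglion. In the sham group, 6 adult male rats of this strain had the incision and the exposure of the foramen with no injection, so zymosan, adjuvant and the injection itself differed together between the groups. All ganglia were removed on post-operative day 3, and each array held the RNA of 1 whole ganglion, in which neurons, satellite glia, Schwann cells, vessel cells and immune cells were not separated. A lower value in such tissue can come from fewer cells of a type, less RNA per cell or more RNA of other cells. These cannot be told apart. Each value is a log2 value from which the median of that gene over the 12 arrays was subtracted, so 0 is the middle of the 12 arrays and the values hold no level of expression. Where the groups did not overlap, the highest array of one group and the lowest of the other therefore lie at equal distances from 0. LID was compared with sham in limma over all 8260 probesets, and a gene is called higher or lower where its Benjamini-Hochberg adjusted p was under 0.05.

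Voltage-gated calcium and sodium channels open on depolarization; the pore is formed by a large alpha subunit, and auxiliary subunits set its trafficking and gating. Hcn and Cng channels are opened or modulated by cyclic nucleotides, Trp channels respond to temperature, chemical agonists or receptor signalling, Asic channels to protons and P2X receptors to extracellular ATP, whereas IP3 receptors release calcium from the endoplasmic reticulum. Clc proteins carry chloride, at the plasma membrane as channels or in endosomes and lysosomes as chloride/proton exchangers. In sensory ganglia, several of these proteins set the firing threshold and transmitter release of neurons, and others are found mainly in glia and immune cells.

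Most channel genes changed little on the array. In the LID ganglia 5 of the 71 genes were higher (7.04%), 11 were lower (15.5%) and 55 did not pass the test. Over all probesets 7.66% were called higher and 11.7% were called lower. The median difference, LID minus sham, was -0.04 (log2) over the 71 genes and -0.02 over all probesets. The LID and sham arrays did not overlap in 2 of the 71 genes with LID higher and in 4 with LID lower. Over all probesets 3.62% did not overlap with LID higher and 6.42% with LID lower. Neither count exceeded the share of the whole array. The share called higher lay near that of the whole array, and the share called lower was a little above it. The array differences of the called genes were small, between -0.59 and 0.36 on the log2 scale. For other genes, the authors often found far larger changes by quantitative PCR than on the array. The 2 directions did not fall evenly on the families.

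**Figure D1:**
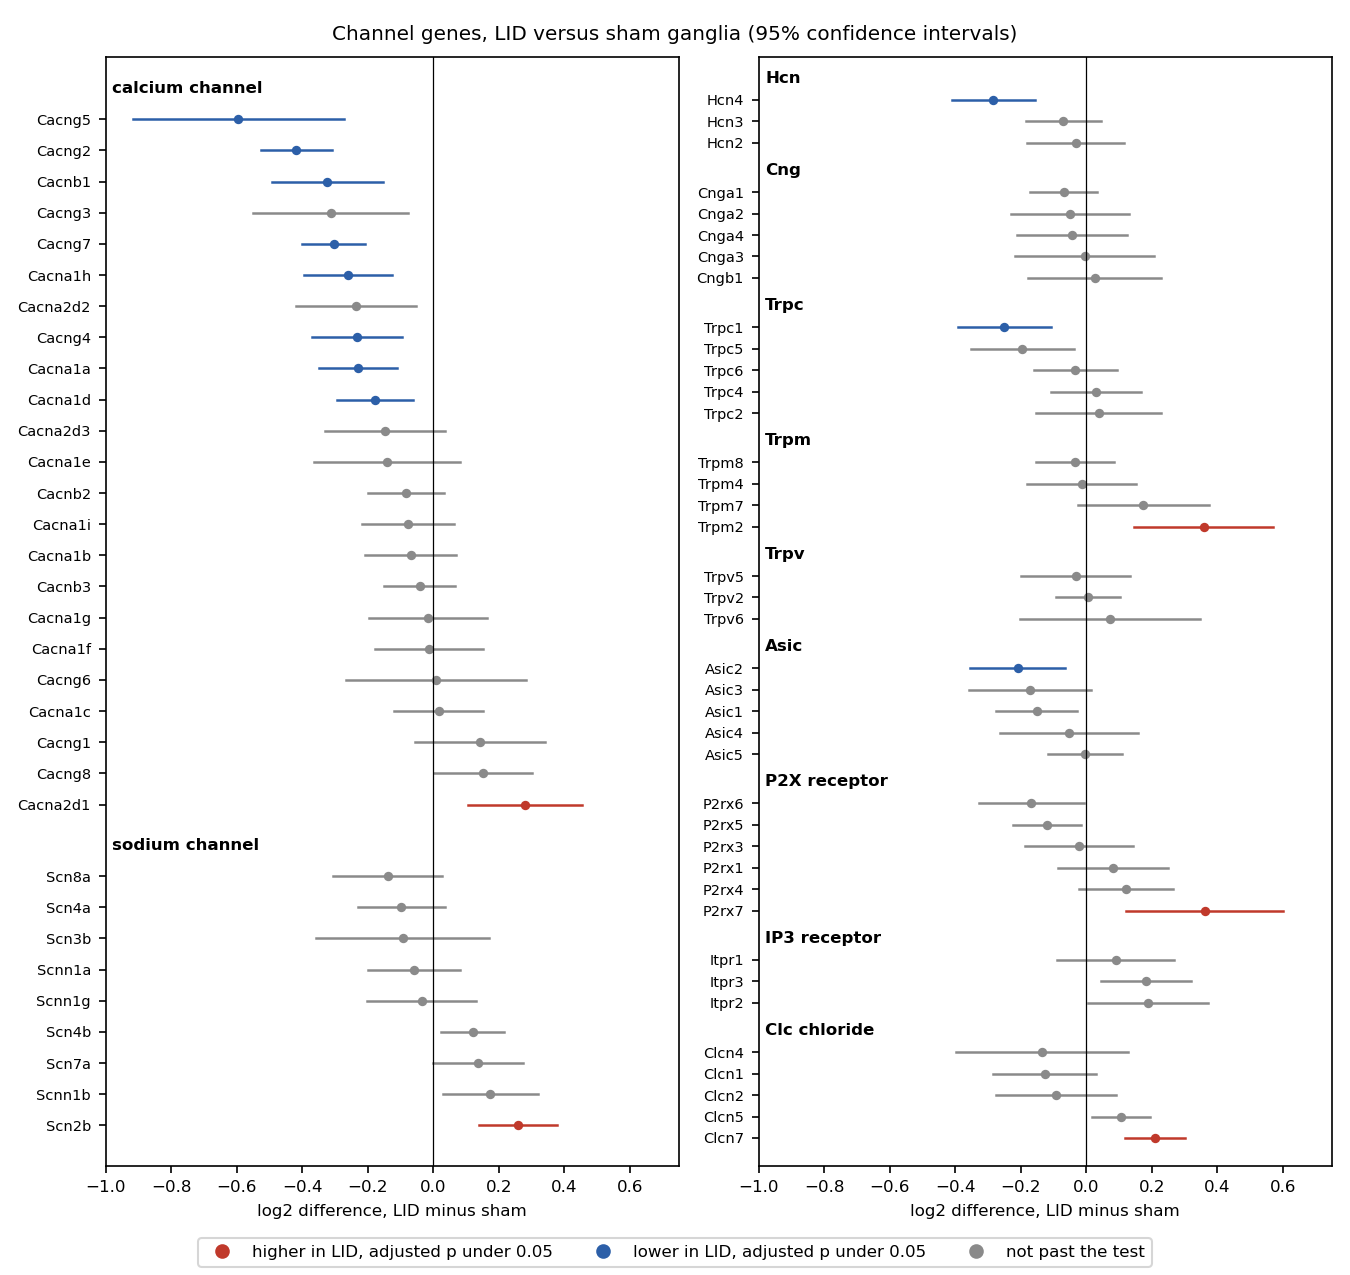
Log2 difference between LID and sham (x axis, LID minus sham, n = 6 arrays per group) for the 71 channel genes (rows, grouped by family), with 95% confidence intervals as lines and calls at an adjusted p under 0.05 in color. Of the 16 colored genes, 9 are calcium channel genes, of which 8 lie left of 0.

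The calcium channel genes held most of the decreases. Of these 23 genes, 8 (34.8%) were lower and 1 was higher, against 3 lower and 4 higher among the other 48 genes. The median difference was -0.14 over the calcium channel genes and -0.03 over the other 48. Without sham replicate 2, which stood apart from the other arrays, the median over the calcium channel genes was -0.07, and 7 of them were lower. The difference was negative for 18 of the 23 calcium channel genes, against 4788 of all 8260 probesets. No sodium channel, Trpm, Trpv, P2X, IP3 receptor, Cng or Clc gene was called lower, and no Hcn, Cng, Trpc, Trpv, Asic or IP3 receptor gene was called higher. All of these families hold 9 genes or fewer, so 1 gene makes up a large share of each, and differences between families were not tested.

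**Figure D2:**
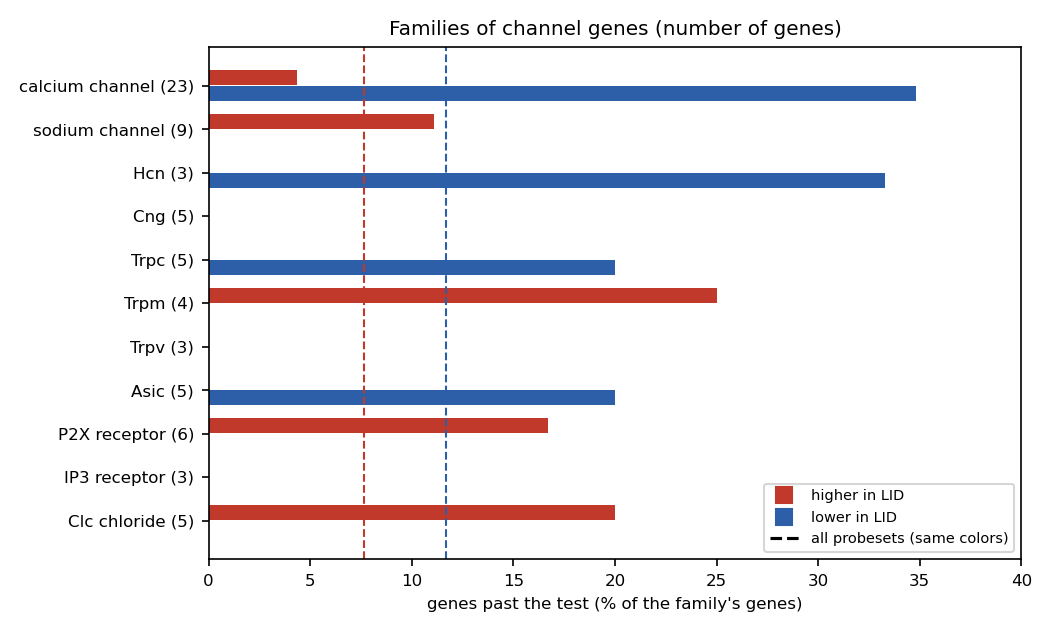
Share of each family's genes that passed the test (x axis, %), with red bars for genes higher in LID and blue bars for genes lower in LID; a missing bar is 0, and dashed lines mark the same shares over all 8260 probesets (7.66% higher, 11.7% lower). The blue bar of the calcium channel genes reaches 34.8%.

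The clearest decreases lay in the Cacng genes. Despite their name as gamma subunits of calcium channels, most of them encode transmembrane AMPA receptor regulatory proteins (TARPs). These bind glutamate receptors of the AMPA type and regulate their trafficking or gating. Cacng2 encodes stargazin, the first known of these proteins. Its values were -0.33, -0.25 and -0.10 (lowest, median and highest of 6 arrays) in LID ganglia, against 0.10, 0.16 and 0.27 in sham ganglia. All LID arrays lay below all sham arrays. Cacng2 had the smallest adjusted p of the 71 genes and fell by 0.42 (log2, SE 0.05, n = 6 arrays per group, adjusted p = 0.000143).

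Cacng7, a type II TARP, was also lower in every LID array than in any sham array. Its values were -0.23, -0.20 and -0.063 in LID ganglia and 0.063, 0.12 and 0.21 in sham ganglia, and it fell by 0.30 (SE 0.05, adjusted p = 0.000605). Cacng5, the other type II TARP, had the largest difference among the channel genes and the widest spread of the called ones. Its values were -0.84, -0.28 and 0.0039 in LID ganglia, against -0.0097, 0.30 and 0.62 in sham ganglia. The groups overlapped at their edges, with 3 LID arrays near the middle and 3 far below it, and the decrease was 0.59 (SE 0.15, adjusted p = 0.0134), a change of -33.8%. Cacng4, a type I TARP, lay at -0.28, -0.079 and 0.0043 in LID ganglia and at -0.0043, 0.12 and 0.25 in sham ganglia. These groups touched only at 0, and Cacng4 fell by 0.23 (SE 0.06, adjusted p = 0.0211).

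The 2 other type I TARPs did not pass the test. Cacng3 had a difference of -0.31 (SE 0.11, adjusted p = 0.0642) and Cacng8 one of 0.15 (adjusted p = 0.162). Cacng1 and Cacng6, whose products belong to the calcium channel of skeletal muscle or resemble that subunit, had differences of 0.14 and 0.0085 with adjusted p values of 0.345 and 0.982. Thus 4 of the 8 Cacng genes fell, against 11.7% of all probesets. All 4 were TARPs, but so were Cacng3 and Cacng8, which were not called. Only Cacng1 and Cacng6 were not TARPs, so few genes were left for a comparison, and a difference between TARPs and the other Cacng genes was not tested.

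AMPA receptor subunits were measured as partners of the TARPs. Gria2, Gria3 and Gria4, whose products take part in the pore of these receptors, were each lower, against 11.7% of all probesets. Gria1 was not among the partner genes measured. Gria3 had values of -0.28, -0.15 and -0.022 in LID ganglia and 0.022, 0.086 and 0.29 in sham ganglia, with no overlap, and fell by 0.29 (SE 0.06, adjusted p = 0.00518). Gria2, the subunit that limits calcium flow through the receptor, was at -0.27, -0.098 and -0.0018 in LID ganglia, against 0.0018, 0.080 and 0.17 in sham ganglia, and fell by 0.19 (SE 0.05, adjusted p = 0.023). The groups were apart by a narrow margin. Gria4 fell by 0.38 (SE 0.11, adjusted p = 0.0282). Its LID arrays reached down to -0.71, and 1 of them lay above the lowest sham array.

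**Figure D3:**
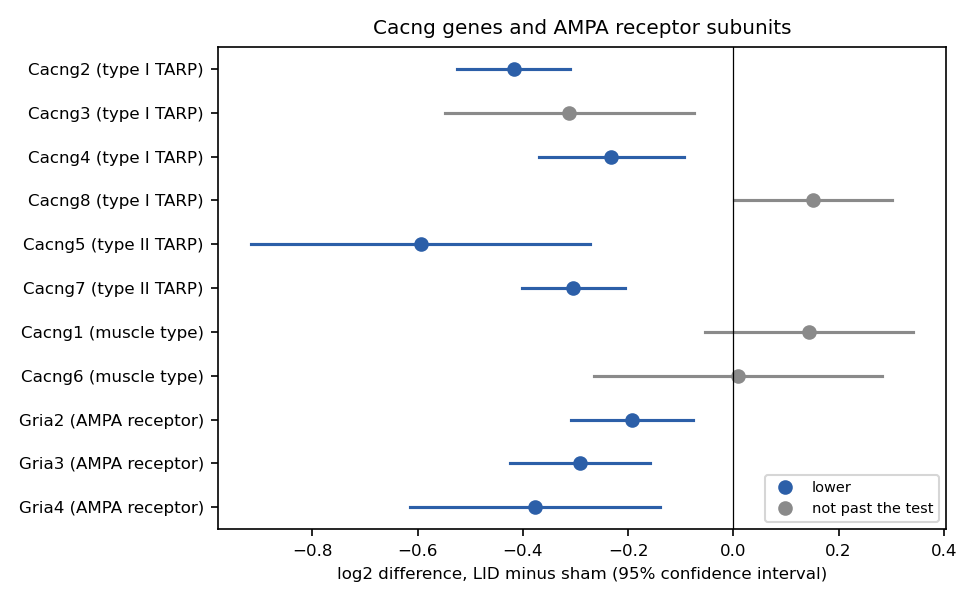
Log2 difference between LID and sham (x axis, LID minus sham, with 95% confidence intervals, n = 6 arrays per group) for the 8 Cacng genes and 3 AMPA receptor subunit genes. Cacng2, Cacng4, Cacng5, Cacng7 and the 3 Gria genes are past the test on the lower side, and Cacng8 and Cacng1 lie at 0.15 and 0.14 without passing it.

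Pore-forming calcium channel subunits fell in 3 of 9 genes (33.3%, against 11.7% of all probesets). Cacna1h encodes a T type channel, which opens near the resting potential and is known from mechanosensitive afferents. Its values were -0.29, -0.15 and 0.011 in LID ganglia and -0.011, 0.14 and 0.18 in sham ganglia. A single LID array reached into the sham range, and the decrease was 0.26 (SE 0.06, adjusted p = 0.0105). Cacna1a, the P/Q type channel of presynaptic terminals, fell by 0.23 (SE 0.06, adjusted p = 0.0105), with values of -0.13, -0.046 and 0.019 in LID ganglia, against -0.019, 0.19 and 0.30 in sham ganglia. Cacna1d, an L type channel, fell by 0.18 (SE 0.05, adjusted p = 0.0336). Its LID arrays lay between -0.12 and 0.0007, and its sham arrays between -0.023 and 0.31. The call of Cacna1d was made in only 5 of the 12 fits that each left out 1 array. It was lost without LID replicate 1, 2, 3 or 5 or sham replicate 2, 3 or 4, with adjusted p values up to 0.0802.

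The other 6 alpha subunits did not pass the test. The N type channel Cacna1b, the main trigger of transmitter release from nociceptor terminals, had a difference of -0.07 (adjusted p = 0.556), and the R type Cacna1e one of -0.14 (adjusted p = 0.42). The L type channels Cacna1c and Cacna1f had differences of 0.02 and -0.01, and the T type channels Cacna1i and Cacna1g had differences of -0.08 and -0.02.

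Auxiliary subunits moved in both directions. Cacnb1 encodes a beta subunit, known as the form of skeletal muscle and also present in neurons, which brings the pore to the membrane. Its values were -0.32, -0.25 and -0.0069 in LID ganglia and 0.0069, 0.059 and 0.42 in sham ganglia. The groups did not overlap, although sham replicate 6 stood far above the other sham arrays, and Cacnb1 fell by 0.32 (SE 0.08, adjusted p = 0.0114). Cacnb2 and Cacnb3 had differences of -0.08 and -0.04 and did not pass.

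Cacna2d1, the alpha2delta subunit that binds gabapentin and promotes the surface expression of calcium channels, was the only calcium channel gene that rose. Its values were -0.0081, 0.091 and 0.34 in LID ganglia, against -0.36, -0.07 and 0.0081 in sham ganglia. The groups overlapped only around 0. Cacna2d1 was 1.21-fold higher in LID (95% confidence interval 1.08 to 1.37, adjusted p = 0.0272). The call was lost without LID replicate 4, LID replicate 6 or sham replicate 6, with adjusted p values up to 0.0575. The related subunits Cacna2d2 and Cacna2d3 had differences of -0.23 (adjusted p = 0.0723) and -0.15 (adjusted p = 0.279). The differences between these subunits were not tested.

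Sodium channel genes showed 1 change. Scn2b encodes a beta subunit, linked to the alpha subunit by a disulfide bond, that promotes the surface expression of the channel. Its values were 0.027, 0.12 and 0.33 in LID ganglia and -0.19, -0.083 and -0.027 in sham ganglia. Every LID array lay above every sham array. Scn2b was 1.2-fold higher in LID (1.10 to 1.30, adjusted p = 0.00563). The beta subunits Scn4b and Scn3b had differences of 0.12 (adjusted p = 0.0771) and -0.09 (adjusted p = 0.7).

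The measured alpha subunits were Scn8a, the main sodium channel of nodes of Ranvier, Scn4a, that of skeletal muscle, and Scn7a, a sodium sensor of glia and some neurons. Their differences were -0.14, -0.10 and 0.14, and none passed the test (adjusted p from 0.17 to 0.337). Of the epithelial sodium channel genes, which the rule takes in by name, Scnn1b had a difference of 0.17 (adjusted p = 0.0936), and Scnn1a and Scnn1g lay at -0.06 and -0.03.

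Hcn4 was lower, whereas Hcn2 and Hcn3 were not called. Hcn4 encodes the slowest of the pacemaker channels, which carry a depolarizing current on hyperpolarization. Its values were -0.38, -0.25 and -0.014 in LID ganglia, against 0.014, 0.039 and 0.16 in sham ganglia, with no overlap. Hcn4 fell by 0.28 (SE 0.06, adjusted p = 0.00468). The differences of Hcn3 and of Hcn2, the form linked to inflammatory pain in mice, were -0.07 (adjusted p = 0.439) and -0.03 (adjusted p = 0.835).

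Among the 12 Trp genes, 1 rose and 1 fell. Trpc1 encodes a subunit of receptor- and store-operated cation channels. Its values were -0.32, -0.087 and 0.024 in LID ganglia and -0.024, 0.15 and 0.26 in sham ganglia. A single LID array lay above the lowest sham array. Trpc1 fell by 0.25 (SE 0.07, adjusted p = 0.0169). The call was made in each fit that left out 1 array and lost without both arrays numbered 2 (adjusted p = 0.0518).

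Trpm2 opens on ADP-ribose and oxidative stress and is known from macrophages and neutrophils as well as neurons. It lay at -0.030, 0.14 and 0.61 in LID ganglia, against -0.29, -0.18 and 0.044 in sham ganglia. Trpm2 was 1.28-fold higher in LID (1.11 to 1.48, adjusted p = 0.0207), and LID replicate 2 held the highest value. The call was lost without sham replicate 3, with an adjusted p of 0.0505.

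The other Trp genes did not pass the test. Trpc5, a channel that nerve terminals use in cold sensing, had a difference of -0.19 (adjusted p = 0.0806), and the kinase-linked magnesium channel Trpm7 one of 0.17 (adjusted p = 0.239). The menthol receptor Trpm8 had a difference of -0.03 (adjusted p = 0.772) and Trpv2, which is found in large sensory neurons and in macrophages, one of 0.005 (adjusted p = 0.969). The epithelial calcium channels Trpv6 and Trpv5 lay at 0.07 and -0.03, and Trpm4, Trpc6, Trpc4 and Trpc2 lay between -0.03 and 0.04.

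All 5 Asic genes had negative differences, against 4788 of all 8260 probesets. Only 1 Asic gene passed the test. Asic2 encodes a subunit that shapes the proton response of the other Asic channels. Its values were -0.27, -0.093 and 0.037 in LID ganglia and -0.014, 0.075 and 0.31 in sham ganglia. Asic2 fell by 0.21 (SE 0.07, adjusted p = 0.0438), with overlapping groups. This was the call nearest to the threshold. It was made in only 4 of the 12 fits that left out 1 array and was lost without LID replicate 1, 2, 3, 5 or 6 or sham replicate 2, 3 or 4, with adjusted p values up to 0.0962. Asic1 had a difference of -0.15 (adjusted p = 0.0873), and Asic3, the subunit of nociceptors that respond to mild acid, had one of -0.17 (adjusted p = 0.203). Asic4 and Asic5 had differences of -0.05 and -0.0043.

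P2rx7 was the only P2X gene that rose. It encodes a receptor of macrophages, microglia and satellite glia that opens at high ATP and leads to the release of interleukin-1β. The values of P2rx7 were -0.077, 0.16 and 0.31 in LID ganglia, against -0.55, -0.19 and 0.14 in sham ganglia. It was 1.28-fold higher in LID (1.09 to 1.52, adjusted p = 0.0367), and the groups overlapped. The call was made in 4 of the 12 fits that left out 1 array and was lost without LID replicate 2, 3, 4 or 5 or sham replicate 1, 2, 3 or 4, with adjusted p values up to 0.0823. P2rx3, the ATP receptor of nociceptors, had a difference of -0.02 (adjusted p = 0.904), and P2rx4, found in microglia and macrophages, one of 0.12 (adjusted p = 0.248). P2rx5 and P2rx6 had differences of -0.12 (adjusted p = 0.11) and -0.17 (adjusted p = 0.147), and P2rx1 had one of 0.08.

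The 3 IP3 receptor genes all had positive differences, against 3472 of all 8260 probesets. None of the 3 genes passed the test. Their differences lay at 0.18 for Itpr3 (adjusted p = 0.0619), 0.19 for Itpr2 (adjusted p = 0.151) and 0.09 for Itpr1 (adjusted p = 0.547).

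Clcn7 was the only Clc gene that changed. Its product exchanges chloride for protons in lysosomes and in the ruffled border of osteoclasts. It lay at 0.039, 0.079 and 0.15 in LID ganglia and at -0.22, -0.13 and -0.039 in sham ganglia. The groups did not overlap, and Clcn7 was 1.16-fold higher in LID (1.09 to 1.23, adjusted p = 0.00381). The endosomal exchangers Clcn5 and Clcn4 had differences of 0.11 (adjusted p = 0.0972) and -0.13 (adjusted p = 0.538). The plasma membrane channels Clcn1, the chloride channel of skeletal muscle, and Clcn2 had differences of -0.13 (adjusted p = 0.282) and -0.09 (adjusted p = 0.547).

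The Cng genes, which encode the cyclic nucleotide gated channels of photoreceptors and olfactory neurons, showed no call. Their differences lay between -0.07 for Cnga1 (adjusted p = 0.39) and 0.03 for Cngb1 (adjusted p = 0.911), and 0 of 5 had an unadjusted p under 0.05.

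**Figure D4:**
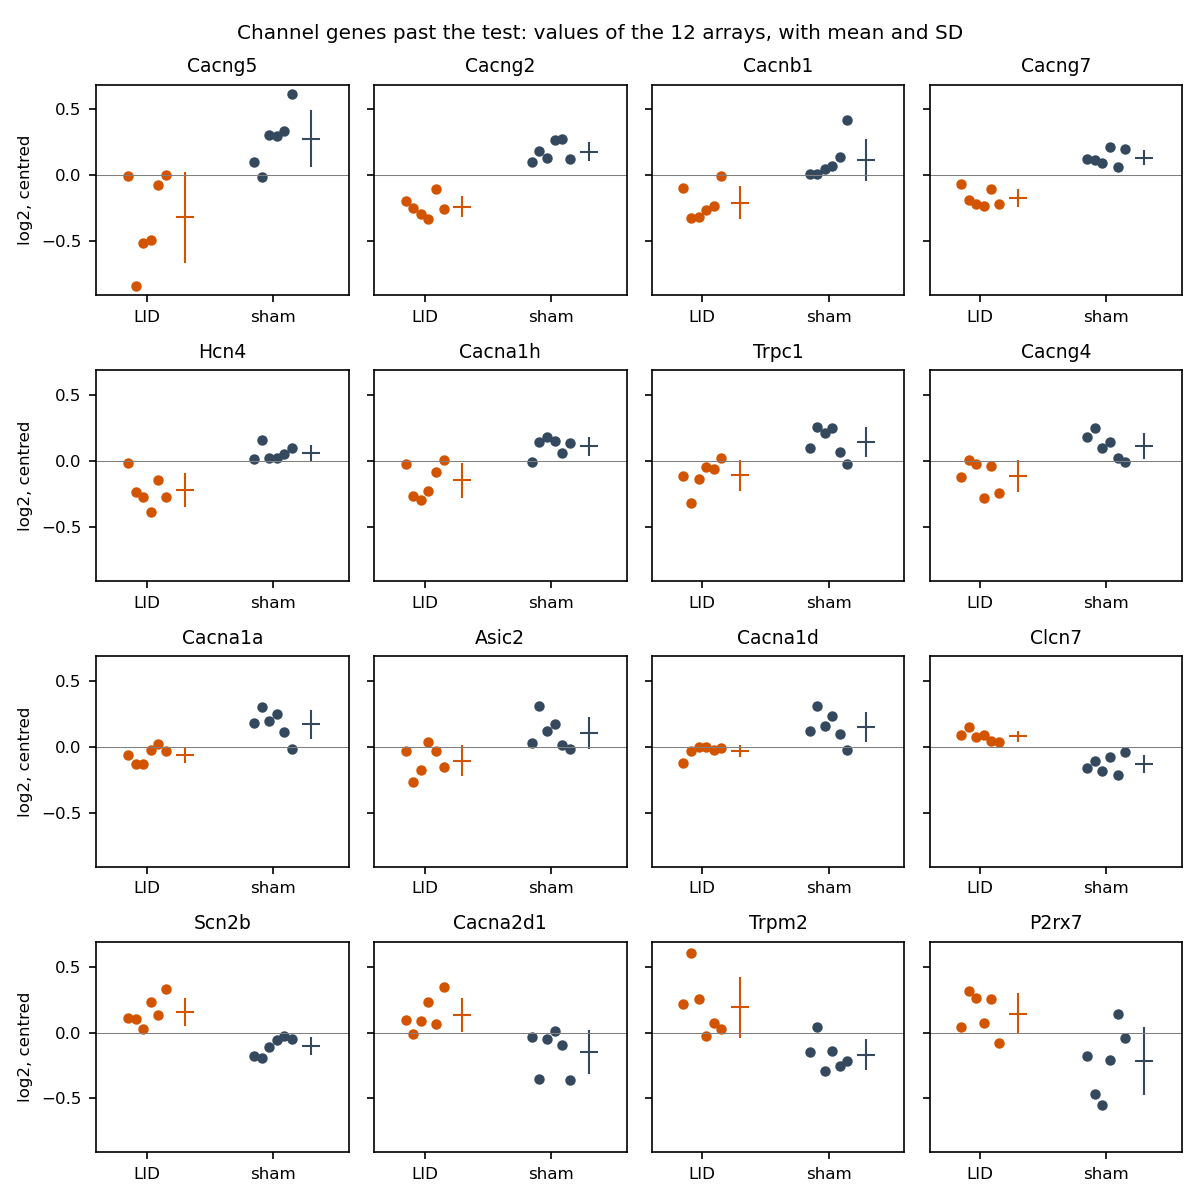
Values of the 16 channel genes past the test in each array (y axis, log2, with 0 at that gene's median), with the 6 LID arrays to the left of the 6 sham arrays in each panel and the mean and SD beside the points. Panels run by difference, with Cacng5 first and P2rx7 last; LID and sham points do not overlap in Cacng2, Cacng7, Cacnb1, Hcn4, Clcn7 and Scn2b.

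Of the 16 calls, 11 were made in all 12 fits that each left out 1 array, and these were Cacng2, Cacng4, Cacng5, Cacng7, Cacnb1, Cacna1a, Cacna1h, Hcn4, Trpc1, Clcn7 and Scn2b. Sham replicate 2 stood apart from the other arrays. Its median over 954 probesets of olfactory, trace amine and vomeronasal receptors was 0.22, against -0.08 to 0.07 in the other 11 arrays, and its median over the 71 channel genes was 0.16, against -0.05 to 0.03. It was the highest of the 12 arrays for 30 of the 71 genes, among them 4 of the 5 Cng genes, 8 of the 23 calcium channel genes and 6 of the 16 called genes. Without this array 7 channel genes were called higher and 9 lower, 7 of them calcium channel genes. Without LID replicate 4, 3 were called higher. Without sham replicate 2, Asic2, P2rx7 and Cacna1d lost their calls (adjusted p = 0.0714, 0.0702 and 0.0524). Cacng2 fell by 0.42 without that array as with it. Quantile normalization of the deposited values once more gave 9 higher and 11 lower channel genes.

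Partner genes, taken to bind, anchor or regulate these channels, were described from a list of 55 genes, of which 28 were measured. Of these, 12 fell, 0 rose and 16 were without a call, with a median difference of -0.12. The share that fell was 42.9%, against 11.7% of all probesets. The list was drawn up with earlier results of these data known, so this excess is a description and was not tested. The count rested on single arrays, with 5 lower without sham replicate 4, 6 without LID replicate 2 or sham replicate 3 and 7 without LID replicate 3, and it was 7 with array medians set to 0. The mean of the list lay between -0.18 and -0.03 in LID ganglia and between 0.01 and 0.09 in sham ganglia, without overlap. In 6 of the 28 partners every LID array lay below every sham array, against 6.42% of all probesets. These were Gria2, Gria3, Jph4, Nlgn2, Crmp1 and Camk2b. Jph4, a junctophilin that ties the plasma membrane to the calcium store in neurons, fell by 0.40 (SE 0.06, adjusted p = 0.000801). Nlgn2, a neuroligin of inhibitory synapses, fell by 0.32 (SE 0.05, adjusted p = 0.000805).

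The fibroblast growth factor homologous factors Fgf14 and Fgf12, which bind the tail of sodium channels, fell by 0.40 (SE 0.06, adjusted p = 0.00098) and 0.37 (SE 0.10, adjusted p = 0.0145). The other partners that fell were Dlg4, the scaffold PSD-95, Camk2b and Camk2g, subunits of calcium/calmodulin kinase II, Rem2, a small GTPase that lowers calcium current, and Crmp1. Their differences lay between -0.27 for Rem2 and -0.16 for Camk2g.

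Most macrophage markers were higher in LID ganglia. Of 16 macrophage markers 11 were measured, of which 10 rose (90.9%, against 7.66% of all probesets) and 0 fell. Their mean lay between 0.19 and 0.89 in LID ganglia and between -0.89 and -0.10 in sham ganglia, and the median difference was 1.16. The lysozyme Lyz2 was 2.82-fold higher in LID and the leukocyte phosphatase Ptprc 2.47-fold higher (adjusted p = 0.000299). The 5 channel genes that rose did so by 1.28-fold for Trpm2 and P2rx7, 1.21-fold for Cacna2d1, 1.2-fold for Scn2b and 1.16-fold for Clcn7. With the macrophage mean as a covariate, 0 of the 71 channel genes and 2 of the 8260 probesets were called. The differences were then 0.40 for Scn2b, 0.37 for Cacna2d1, 0.20 for Clcn7, 0.10 for Trpm2 and -0.04 for P2rx7. The mean did not overlap between the groups, so the group and the macrophage mean cannot be told apart in this fit.

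Neuronal markers gave a mixed picture. Of 16 measured, 3 fell (18.8%, against 11.7% of all probesets) and 1 rose (6.25%, against 7.66%). Elavl3, an RNA-binding protein of neurons, fell by 0.45 (adjusted p = 0.00204), the synaptic vesicle protein Syn1 fell by 0.37 (adjusted p = 0.00316), and the microtubule protein Map2 fell by 0.29 (adjusted p = 0.0231). The neuronal enolase Eno2 rose by 0.13 on the log2 scale (adjusted p = 0.0437) without overlap. The median over the list was -0.02. The list mean lay between -0.12 and 0.07 in LID ganglia and between -0.02 and 0.08 in sham ganglia, with overlap. With this mean as a covariate 4 channel genes were called lower, namely Cacng2, Cacng4, Cacng7 and Hcn4, and 4 were called higher, among them Scn2b, Cacna2d1 and Clcn7.

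Markers of other cells differed in how many were called. Of 9 satellite glia markers 1 rose (11.1%, against 7.66% of all probesets) and 2 fell (22.2%, against 11.7%). Gfap, the filament of reactive glia, rose 2.49-fold. Gjb6 fell by 0.98 (adjusted p = 0.00707) and the glutamate transporter Slc1a3 by 0.48 (adjusted p = 0.00118). Of 9 probesets for Schwann cell markers 0 were called, and 0 had an unadjusted p under 0.05. Their differences ran from -0.17 for 1 of the 2 Mbp probesets to 0.16 for Gjb1, with 4 positive, 5 negative and a median of -0.0008. Pmp22, a myelin protein, had a difference of -0.08.

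Of 4 neutrophil markers 2 rose, Fcnb by 2.78 and Cxcr2 by 0.39 on the log2 scale, whereas S100a8 and S100a9 had differences of -0.0013 (adjusted p = 0.994) and 0.07 (adjusted p = 0.757). Of all probesets 7.66% rose. Of 7 markers of T and natural killer cells 3 rose, led by Klrk1 with 1.72 and Nkg7 with 1.16. Among 2 endothelial markers Esam rose by 0.56, and Cldn5 had a difference of 0.13. No fibroblast marker of 5 passed, with differences of 0.31 for Col1a2 and 0.36 for Col3a1. Of 8 skeletal muscle markers Des rose by 0.94, while the muscle troponin Tnnt3 had a difference of 0.22 (adjusted p = 0.0668). The other 6 muscle markers lay between -0.06 for Ckm and 0.04 for Tnni2, and the median of the list was 0.03. The part of these cells in the differences of the channel genes was not tested beyond the 2 covariates above.

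**Figure D5:**
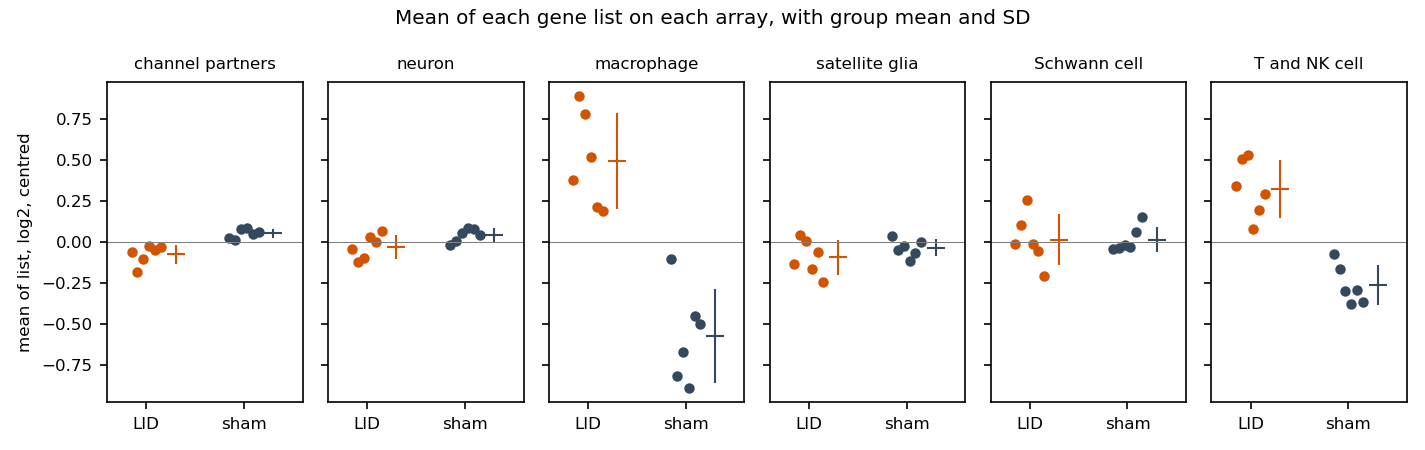
Mean of 6 gene lists on each array (y axis, log2, each gene with 0 at its median), with the 6 LID arrays to the left of the 6 sham arrays in each panel and the group mean and SD beside the points. The macrophage mean lies above 0 on all LID arrays and below 0 on all sham arrays, the channel partners show the opposite order within a narrower range, and the neuronal mean overlaps between the groups.

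Promoter sequence was available in the RefSeq table used here (assembly GRCr8, from 250 bases before to 50 bases after each start) for 57 of the 71 genes and 10 of the 16 called ones. Of the 5 channel genes that rose, Scn2b and Cacna2d1 are not shown, and the cells behind the increases were not tested. The 4 windows below are those of Clcn7, P2rx7 and Trpm2, which rose, and of Cacng2, with the smallest adjusted p of those that fell. They are read 5′ to 3′ on the gene's strand, and capitals mark 3 motifs searched on both strands, namely TATAAA (the TATA box, written TTTATA where it lies on the other strand), GGGCGG (the GC box) and CACGTG (an E box, the core of the CLEAR element of lysosomal genes). The motifs did not overlap each other.
Clcn7, chr10:14656011-14656310, + strand: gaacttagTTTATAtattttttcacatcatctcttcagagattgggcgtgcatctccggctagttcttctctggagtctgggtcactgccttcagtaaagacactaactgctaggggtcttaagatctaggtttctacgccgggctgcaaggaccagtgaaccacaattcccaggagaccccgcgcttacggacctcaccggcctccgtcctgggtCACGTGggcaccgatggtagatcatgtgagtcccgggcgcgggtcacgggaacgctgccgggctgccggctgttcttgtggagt
P2rx7, chr12:39594873-39595172, - strand: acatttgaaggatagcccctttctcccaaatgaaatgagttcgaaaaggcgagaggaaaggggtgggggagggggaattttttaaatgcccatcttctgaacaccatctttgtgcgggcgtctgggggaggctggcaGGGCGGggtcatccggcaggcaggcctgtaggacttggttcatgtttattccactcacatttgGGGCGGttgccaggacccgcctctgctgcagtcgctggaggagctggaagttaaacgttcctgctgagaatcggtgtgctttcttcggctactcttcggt
Trpm2, chr20:10704222-10704521, + strand: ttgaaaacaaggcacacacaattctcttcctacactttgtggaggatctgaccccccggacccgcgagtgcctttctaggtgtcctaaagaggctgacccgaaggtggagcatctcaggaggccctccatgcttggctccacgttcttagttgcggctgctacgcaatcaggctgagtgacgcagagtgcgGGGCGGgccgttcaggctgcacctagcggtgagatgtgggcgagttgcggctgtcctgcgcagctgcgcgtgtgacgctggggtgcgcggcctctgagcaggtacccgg
Cacng2, chr7:111577708-111578007, - strand: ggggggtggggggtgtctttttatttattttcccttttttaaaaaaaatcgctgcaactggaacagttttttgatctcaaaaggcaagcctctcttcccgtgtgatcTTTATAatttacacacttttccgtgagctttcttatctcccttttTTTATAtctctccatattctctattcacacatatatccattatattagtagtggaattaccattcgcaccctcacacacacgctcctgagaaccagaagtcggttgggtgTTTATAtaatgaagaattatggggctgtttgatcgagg

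The window of Clcn7 held a CACGTG that began 34 bases before the start, a motif present in 6.42% of all 33469 windows and in 6.35% of the 63 windows of the channel genes, some of which had more than 1 window. GGGCGG was found 2 times in the window of P2rx7 and 1 time in that of Trpm2, and in 47.6% of the windows of the channel genes, against 33.1% of all windows. TATAAA, found in 14.2% of all windows and 7.94% of those of the channel genes, occurred 3 times in the Cacng2 window on the opposite strand. The Cacng2 window held 7 CG dinucleotides, against 18 in that of Clcn7, 21 in that of Trpm2 and 13 in that of P2rx7. The median was 13 over the windows of the channel genes and 7 over all windows. A match of these letters describes the sequence only, and no factor's binding was measured.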

How the data were processed

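Total RNA of 12 single L5 ganglia, 6 LID and 6 sham, was hybridized by the authors to Affymetrix Rat Exon ST 1.0 arrays. The deposited values are log2 values of core probesets, for which the authors used RMA16 in GeneSpring to obtain 1 value per gene, with quantile normalization and a shift to the median of all samples. In the values themselves each probeset's median over the 12 arrays is 0, so signal over background is unknown and no filter on expression could be applied. RNA was isolated with 1 of 2 kits, and neither the labels nor the study's methods say which sample had which, so the groups could not be checked for it. No further batch is named in the sources used here. The labels list the build rn4, none of whose coordinates were used. Gene symbols were updated by Entrez ID through a RefSeq table (GRCr8), which held 7584 of 7608 probesets with 1 symbol. Of the rest, 404 probesets had several symbols and 248 had none.

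A linear model with empirical Bayes moderation was fitted for each probeset over the 12 arrays (limma 3.58.1, R 4.3.3). Tests were two-sided, and p-values were adjusted over 8260 probesets by the Benjamini-Hochberg method. Other values were computed in Python 3.11.15 with numpy 2.4.6, pandas 2.3.3 and matplotlib 3.10.9. The fit was tested on simulated data for LID versus sham over 8260 probesets. It found 50.7% of 1.2-fold, 98.5% of 1.5-fold and 100.0% of 2-fold changes, with 18 false calls among 184, a larger share than the threshold of 0.05. The simulation changed far fewer probesets than the 633 higher and 968 lower called in the data. Its noise was drawn separately for each probeset, so these figures hold for that setting and may differ in the data. In that setting, with 6 arrays per group, small changes were often missed. The samples are labelled as biological replicates, and the number of arrays limits the precision.

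The channel genes, their subgroups, the partner list, the marker lists, the naming rule and the alternatives were chosen with earlier results of these data known. Genes named were all channel genes past the test, the gene with the smallest p in each family or subgroup with no call, the gene with the smallest p not passing in each family, up to 6 partners past the test with the smallest p, and the 2 genes with the smallest p in each marker list. Other channel genes, partners and markers were named after their values were seen, to account for the whole set. Alternatives covered moderation, normalization, array weights, the replicate block, covariates, arrays left out, probesets tested and thresholds. Same-numbered LID and sham arrays did not deviate together throughout (correlation of deviations from the group means between -0.15 and 0.40), so the numbers were not taken to pair the samples.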

Additional observations from a re-analysis of the deposited data

Results flagged for a closer look

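In 8 of 110 groups of 6 arrays tested for a single outlying array, 1 array lay far from the other 5; chance alone gives about 1 in 20 groups. Among the channel genes, Cacnb1 was 0.42 (log2, with 0 at the gene's median) in sham replicate 6 and 0.0069 to 0.14 in the other sham arrays. Without that array Cacnb1 remained lower in LID. Cacna1d was -0.12 in LID replicate 1, against -0.031 to 0.0007 in the other LID arrays, and its call was lost without that array. Clcn5 was 0.15 in LID replicate 1 and -0.0075 to 0.040 in the other LID arrays. Trpv6 was 0.57 in sham replicate 2, the array that also stood apart in its receptor probesets, and -0.25 to 0.054 in the other sham arrays.

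Among the partners and markers, Fgf14 was 0.018 in LID replicate 3, against -0.31 to -0.21 in the other LID arrays, and -0.018 in sham replicate 2, against 0.23 to 0.26 in the other sham arrays. Syn1 was 0.015 in sham replicate 1 and 0.24 to 0.34 in the other sham arrays. Gfap was 0.82 in LID replicate 1 and 0.38 to 0.54 in the other LID arrays.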

How the results depend on the processing

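The 5 higher and 11 lower channel genes kept similar counts under most alternatives. Leaving out 1 array at a time gave 3 to 7 higher and 9 to 15 lower channel genes and 5 to 12 lower partners, against 12 with all arrays. Quantile normalization once more and array weights each gave 9 higher channel genes, and the receptor median as a covariate gave 10. At an adjusted p under 0.01, 2 were higher and 3 lower, of which 2 were calcium channel genes, and 4 partners were lower. With a change of over 1.2-fold required, 3 were higher and 5 lower, of which 4 were calcium channel genes, and 7 partners were lower. With array medians set to 0 or without both arrays numbered 2, 7 partners were lower. Without those 2 arrays Trpc1, Asic2, P2rx7 and Cacna1d lost their calls (adjusted p = 0.0518, 0.133, 0.137 and 0.084), and 12 of the 16 remained. The replicate number as a block gave 6 higher and 12 lower channel genes and 675 higher and 1005 lower probesets. Asic2 and P2rx7 lost their calls under it, and no other call among the 16 was lost. Same-numbered arrays had correlations of 0.16, 0.40, -0.15, 0.37, -0.03 and 0.04. The highest correlations with an array of another number were 0.30, 0.41, 0.18, 0.27, 0.10 and 0.34, so only replicate 4 had its highest with the same number. The labels name no pairing, and these correlations cannot exclude one.

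With the neuronal mean as a covariate, 4 channel genes were lower, 3 of them calcium channel genes, and 4 partners were lower. The sodium channel median was then 0.0994, against -0.03 without it, and the medians of the satellite glia and Schwann lists were -0.0095 and -0.1006. Trpv6 (-0.0871) and Cldn5 (-0.0316) changed sign.

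With the macrophage mean as a covariate, 0 channel genes were higher, 0 lower, and 0 partners were lower. The family medians were then 0.0939 for calcium, 0.1504 for sodium, 0.0917 for Hcn, 0.0534 for Trpc, 0.1189 for Trpm, -0.0313 for Asic, -0.0207 for P2X and -0.2622 for IP3 receptor genes. The list medians were 0.0505 (neuron), -0.008 (macrophage), -0.0483 (satellite glia), -0.273 (Schwann), 0.1468 (T and natural killer cell), 0.1916 (endothelial), -0.3551 (fibroblast) and 0.027 (partners). These genes changed sign: Cacng3 (0.0939), Cacna1h (0.0766), Asic2 (0.077), P2rx7 (-0.0366), Hcn3 (0.1471), Itpr3 (-0.0394), Trpc1 (0.073), Fgf12 (0.016), Syn1 (0.0224), Cldn5 (-0.0328), Col1a2 (-0.3551) and Col3a1 (-0.4669). This covariate does not overlap between the groups.

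Array weights moved the sodium channel median to 0.0399. Without both arrays numbered 2 the calcium channel median was -0.0654. Leaving out 1 array gave calcium channel medians between -0.1967 and -0.0744 and sodium channel medians between -0.0557 and 0.0265. Leaving out probesets with a small range, which removes genes from the lists, gave medians of -0.1579 (Hcn), 0.1735 (Trpm), 0.0813 (P2X), -0.1866 (neuron) and -0.1848 (partners). Where no cause is named, the cause was not tested. Signal over background is unknown in these values, so a gene without a call may not have been detected.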
